A study of Mus musculus with 48 samples.

Results

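Sox4, Sox11, Sox12, Klf4, Klf5, Klf6, Klf10 and Klf11 were followed by polyA RNA sequencing in cultured mouse cells from pancreatic neuroendocrine tumours (PanNET). The 8 genes were chosen by name, as SoxC and Krüppel-like factor genes tied to responses to TGF-β family ligands, and are 8 of the 39017 gene identifiers counted. All 8 were found by their Ensembl identifiers.

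The cells were of 2 lines, βTC3, an insulinoma line, and AJ5257-1 (AJ below). The study asked how ALK7 signals in these cells. ALK7 is the receptor kinase encoded by Acvr1c. Every group carried the dox-inducible PB-33 plasmid. Its insert was a constitutively active receptor (ALK7-CA), the wild-type receptor (ALK7, in AJ alone) or nothing (vector). Doxycycline (dox), at 2 µg/ml, lasted 0, 2 or 24 h, and activin B, where used, was at 50 ng/ml over 24 h. In batch 1 each line had ALK7-CA cells at 2 and 24 h of dox and vector cells at 0, 2 and 24 h. In batch 2 each line had vector cells off dox, activin B-treated and untreated. AJ also had ALK7 cells there on dox for 24 h, activin B-treated and untreated. No group of ALK7-CA or ALK7 cells was without dox. A difference of theirs from vector cells that stood before dox therefore cannot be told apart from an effect of the induced receptor. The 16 groups had 3 libraries each, from cells plated in triplicate. The labels do not say whether the 3 are independent cultures, so each p-value reflects only the scatter among these wells. Whether a line with a plasmid was 1 clone is not given in the sources used here.

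SoxC proteins share a DNA-binding HMG box, and Sox4 is needed for endocrine cells to form in the mouse pancreas. Krüppel-like factors bind GC-rich and CACCC boxes through zinc fingers. Klf10 and Klf11 were first described as TGF-β-inducible early genes. Activin B, acting through ALK7, leads to phosphorylation of SMAD2 and SMAD3, which enter the nucleus with SMAD4. In mouse pancreatic ductal tumour cells, Sox4 is a TGF-β target that drives apoptosis when Klf5 is lost.

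The promoters below are shown because Sox4 and Klf11 were higher with receptor or ligand in both lines, and Klf4 was higher in AJ cells with ALK7-CA for 24 h. They are RefSeq sequences of GRCm38.p6, 5′ to 3′ on the gene's strand, from 250 bases before to 50 after the annotated start. Capitals mark CAGAC, the SMAD-binding element, and GGCGC, a GC-rich SMAD motif, on either strand, so that GTCTG and GCGCC are motifs of the opposite strand. The GC-rich motif can overlap itself when read on both strands.
Sox4: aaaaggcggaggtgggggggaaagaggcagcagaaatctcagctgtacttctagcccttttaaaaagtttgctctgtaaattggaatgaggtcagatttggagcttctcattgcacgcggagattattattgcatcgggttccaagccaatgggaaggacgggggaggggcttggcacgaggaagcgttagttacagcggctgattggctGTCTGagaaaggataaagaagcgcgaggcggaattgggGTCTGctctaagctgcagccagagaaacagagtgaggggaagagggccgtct
Klf11: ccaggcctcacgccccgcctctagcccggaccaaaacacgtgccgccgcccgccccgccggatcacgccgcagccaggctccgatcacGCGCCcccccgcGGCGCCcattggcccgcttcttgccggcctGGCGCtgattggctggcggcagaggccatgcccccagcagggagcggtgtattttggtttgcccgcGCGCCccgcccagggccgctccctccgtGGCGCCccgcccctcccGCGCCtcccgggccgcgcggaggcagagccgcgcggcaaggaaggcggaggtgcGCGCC
Klf4: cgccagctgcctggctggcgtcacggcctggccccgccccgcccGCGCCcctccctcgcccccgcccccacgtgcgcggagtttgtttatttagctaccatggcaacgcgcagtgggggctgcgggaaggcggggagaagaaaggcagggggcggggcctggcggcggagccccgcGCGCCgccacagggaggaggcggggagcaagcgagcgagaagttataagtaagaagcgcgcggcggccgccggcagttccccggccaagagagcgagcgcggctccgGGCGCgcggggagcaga
The Sox4 promoter (chr13:28953650-28953949, minus strand) held 2 CAGAC motifs, both on the opposite strand, and its GC content was 52.0%. The Klf11 promoter (chr12:24651121-24651420, plus strand) held 9 GGCGC motifs at 77.7% GC, and the Klf4 promoter (chr4:55532426-55532725, minus strand) held 3 at 74.3% GC. Promoters were matched for 6 of the 8 members, without Klf5 and Klf10. Sox12 held 1 CAGAC and 3 GGCGC motifs, Sox11 held 1 GGCGC and 2 CACCC motifs, and Klf6 held none of the motifs searched. Among 32851 promoters of the same length, 49.6% held CAGAC, 36.9% GGCGC and 57.5% CACCC. The longer motifs GTCTAGAC, a SMAD palindrome, and AATCCACA and AATACACA, which FOXH1 binds, were in 0.213%, 0.855% and 0.980% of all promoters and in none of these 6. A match is a description of the letters and not of binding.

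Library totals were 17.98 to 38.8 M counts. Values below are CPM, the count scaled to the TMM-adjusted library total. RPKM, CPM per kilobase of merged exons, is used where genes are compared with each other. A value with ± is the mean ± SD of 3 libraries. "Rose" and "fell" are used for an adjusted p under 0.05 in edgeR's quasi-likelihood F test, with adjustment across all genes tested. The fits had no replicate block unless one is named. In bulk RNA, more cells that express a gene and more RNA per cell cannot be told apart. Acvr1c itself was lower with ALK7-CA for 24 h than with vector in both lines, so its counts do not check the plasmid labels. All 14 beta cell and endocrine markers reached a mean of 1 CPM in every βTC3 group, and 13 or 14 did in every AJ group. Of 8 acinar markers 0 to 2 reached it, of 7 fibroblast markers 1 or 2, of 5 endothelial markers 0 to 2 and of 6 immune markers 1. Of 7 ductal markers, 4 or 5 reached it in βTC3 groups and 1 to 3 in AJ groups. One library stood apart. AJ ALK7-CA 24 h replicate 1 held 13 βTC3-typical transcripts at a median of 4.94% of their βTC3 level. Every other AJ library held them at 0.0145 to 0.0993%. Among these, the vector libraries at 0 h of dox in batch 1 were low by choice, since they helped to pick the 13. Of the beta cell markers, Ins2 reached a mean of 1 CPM in AJ with ALK7-CA for 24 h through replicate 1 alone. Its 3 libraries held 605.2, 0.0717 and 0.135 CPM. Tests on the 8 genes that rest on that library are given with and without it, as are the gene list counts, the median over the members and the levels per length, an alternative chosen after the data were seen.

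**Figure D1:**
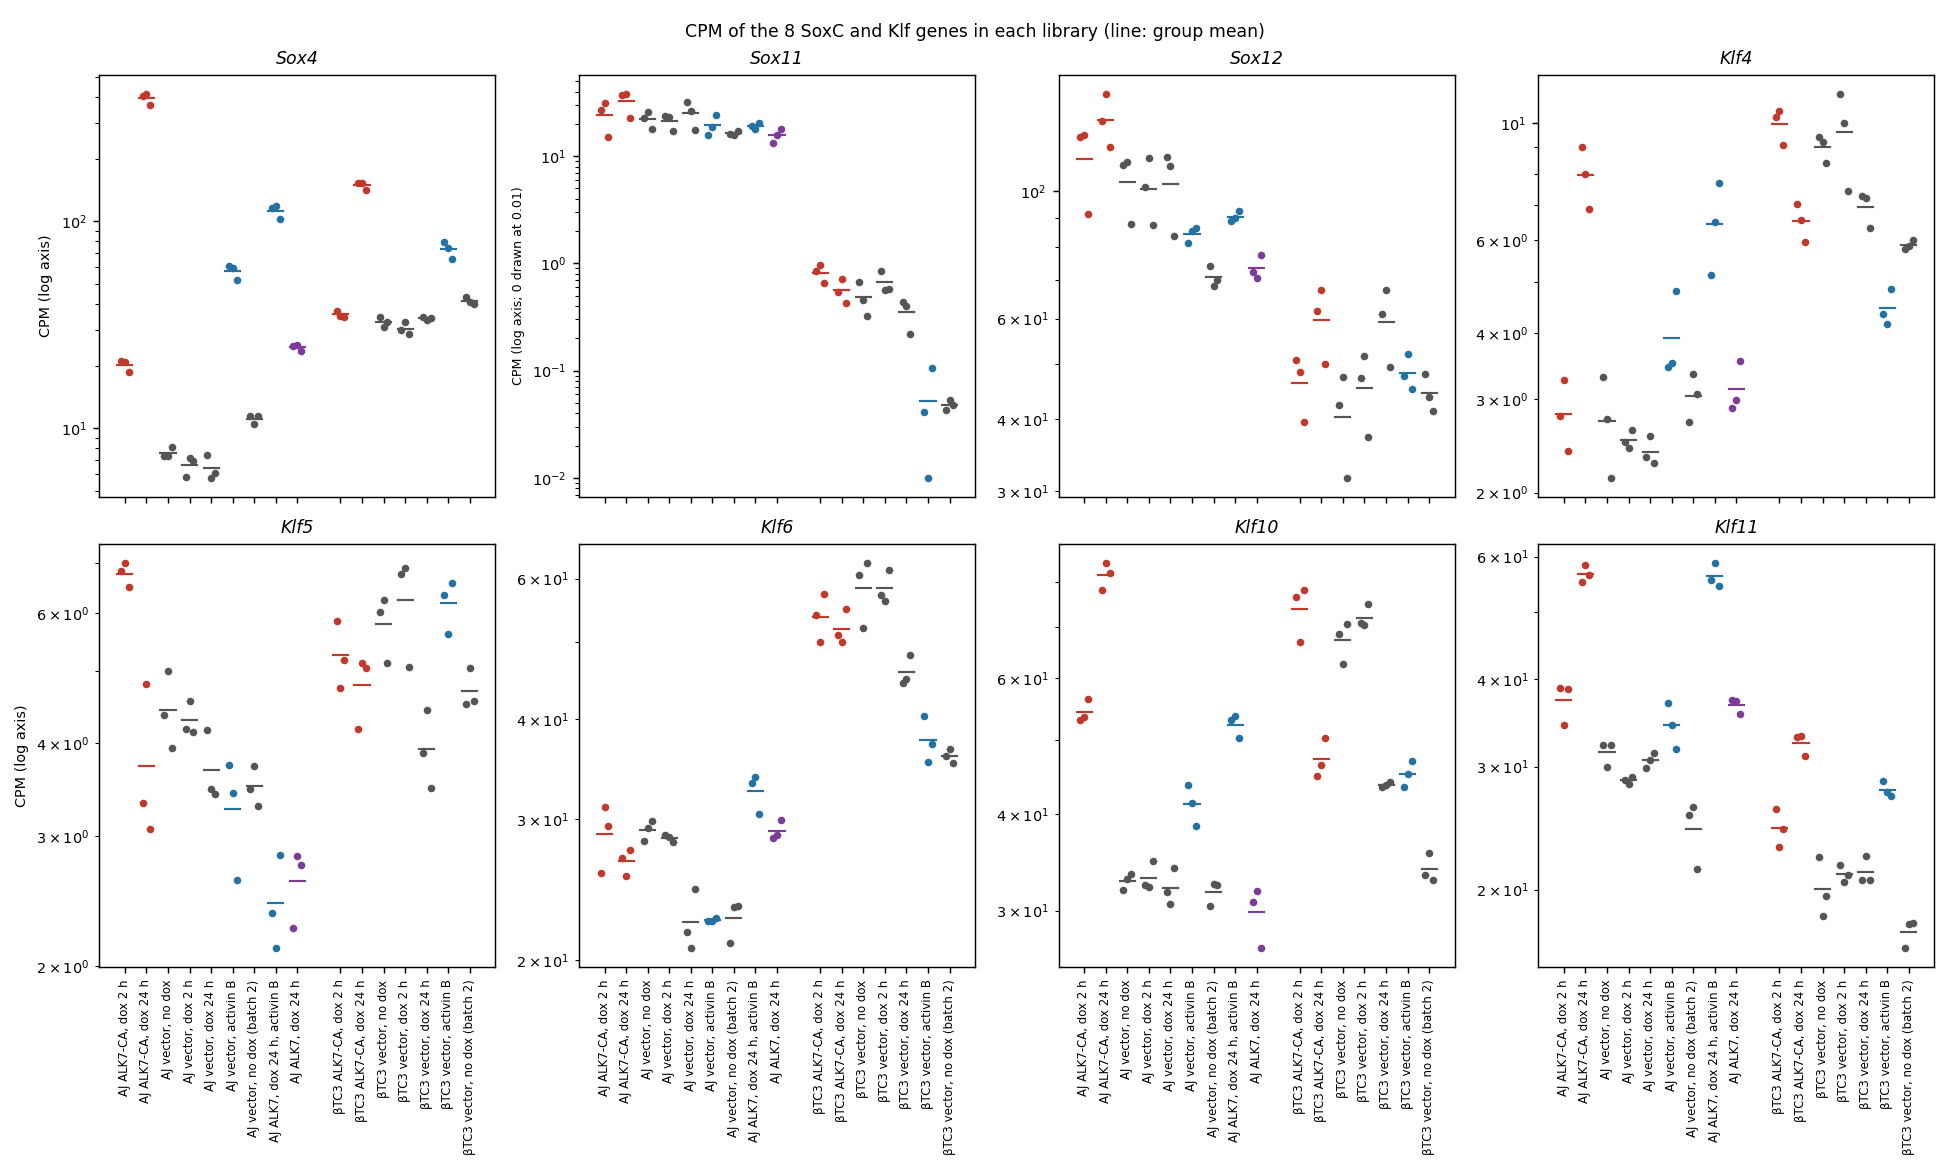
CPM of each of the 8 genes (log axis, 1 panel per gene) in each library, by group, with 3 points per group. Sox4 runs from 5.77 to 413 CPM, the widest range of the genes counted in every library, while Sox11 sits near or under 1 CPM in all βTC3 groups. A Sox11 count of 0 is drawn at 0.01.

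Against the receptor's or ligand's controls, Sox4, Klf10 and Klf11 were the members that rose most often. The counts below are a description, because the genes were chosen with results known. In AJ with ALK7-CA for 24 h 5 of 8 rose (Sox4, Klf4, Klf6, Klf10, Klf11), where 40.7% of all tested genes changed, 20.8% upward. The median log2 fold change of the 8 was 0.63, against −0.01 over all tested genes. Without AJ ALK7-CA 24 h replicate 1 it was again 5 of 8, with medians of 0.64 for the members and −0.01 for all genes, and 37.0% of tested genes changed. At 2 h in AJ 4 of 8 rose (Sox4, Klf5, Klf10, Klf11), where 15.8% of tested genes changed, 8.24% upward, and the medians were 0.28 for the members and 0.01 for all genes. In βTC3 with ALK7-CA for 24 h 2 of 8 rose (Sox4, Klf11), where 13.5% of genes changed, 8.02% upward. The medians were 0.25 for the members and −0.01 for all genes. With the replicate number as a block Klf6 also passed there in edgeR (adjusted p = 0.00352). At 2 h in βTC3 edgeR and DESeq2 each called 0 of 8, with Sox4 and Klf11 the 2 at an unadjusted p under 0.05, where 1.53% of tested genes changed. With the replicate number as a block edgeR called 1 of 8 there, Sox4 (adjusted p = 0.0169). The calls over all genes with the block are given in the last part.

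With activin B 4 of the 7 genes tested in βTC3 rose (Sox4, Klf5, Klf10, Klf11) and 1 fell (Klf4), where 22.2% of all tested genes changed, 12.3% upward and 9.97% downward. AJ vector cells had 4 of 8 rises (Sox4, Sox12, Klf10, Klf11), where 22.5% changed, 11.6% upward. AJ cells with ALK7 had 6 of 8 (those 4 with Klf4 and Klf6), where 32.8% changed, 16.5% upward. Median log2 fold changes of the members were 0.41, 0.31 and 0.46 in these 3 comparisons, and all 3 medians over all tested genes rounded to 0. ALK7 without ligand against vector gave 3 of 8 rises (Sox4, Klf6, Klf11), where 29.0% of tested genes changed, 14.5% upward.

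As fitted without a replicate block, Sox4 rose in 6 of the 7 comparisons of receptor or ligand with their control. The exception was βTC3 with ALK7-CA for 2 h, where it passed in edgeR with the replicate number as a block (adjusted p = 0.0169). Sox4 lies on chromosome 13 (GRCm38 chr13:28948919-28953713, minus strand, 1 exon of 4795 bp, ENSMUSG00000076431). In AJ cells with ALK7-CA for 24 h it stood at 402, 413 and 364 CPM, against 7.48, 5.77 and 6.12 CPM in vector cells at 24 h. The lowest ALK7-CA library was far above the highest vector library, and the change was 60.8-fold (log2 fold change 5.93, SE 0.11, adjusted p = 1.14e-12). Without replicate 1 of the ALK7-CA group it was 60.2-fold. At 2 h the ALK7-CA libraries held 21.05, 20.9 and 18.8 CPM, against 5.83, 7.18 and 6.95 CPM in vector cells. The rise was 3.02-fold (log2 fold change 1.59, SE 0.10, adjusted p = 2.46e-07). The 24 h effect exceeded the 2 h effect by 4.33, SE 0.14, adjusted p = 8.13e-10, on the log2 scale.

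In βTC3 the same receptor moved Sox4 less, and, without a replicate block, past the threshold at 24 h alone. With ALK7-CA for 24 h it stood at 153, 153 and 142 CPM, against 34.4, 33.6 and 34.3 CPM in vector cells, again with no overlap (log2 fold change 2.15, SE 0.069, adjusted p = 2.25e-10). At 2 h the libraries held 37.05, 35.1 and 34.7 CPM with ALK7-CA, against 29.99, 32.7 and 28.4 CPM with vector. These groups did not overlap either, but the difference missed the threshold (log2 fold change 0.23, SE 0.068, adjusted p = 0.145). It passed with the replicate number as a block (adjusted p = 0.0169), and over all alternatives the adjusted p ran from 0.0169 to 0.528. The difference between the 24 h and 2 h effects in βTC3 was 1.91, SE 0.096, adjusted p = 6.51e-08, on the log2 scale. Between lines, the 24 h effect was larger in AJ by 3.77 (SE 0.12, adjusted p = 2.26e-08), and by 3.75, adjusted p = 1.1e-07 without AJ ALK7-CA 24 h replicate 1.

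Activin B also raised Sox4. AJ vector cells held 60.8, 59.3 and 51.9 CPM with activin B, against 11.5, 10.5 and 11.5 CPM untreated, a 5.13-fold rise (log2 fold change 2.36, SE 0.08, adjusted p = 2.98e-09). AJ cells with ALK7 held 116, 118 and 103 CPM with activin B, against 25.1, 25.3 and 23.8 CPM without it, a 4.56-fold rise (log2 fold change 2.19, SE 0.075, adjusted p = 1.91e-09). The level with both ALK7 and activin B was the second highest in AJ, yet the effect of activin B was not shown to differ between ALK7 and vector cells (difference −0.17, SE 0.11, adjusted p = 0.595). βTC3 vector cells held 79.3, 74.3 and 66.04 CPM with activin B, against 43.1, 40.9 and 39.7 CPM untreated, a 1.79-fold rise (log2 fold change 0.84, SE 0.069, adjusted p = 0.000101). The activin B effect was larger in AJ than in βTC3 by 1.53, SE 0.12, adjusted p = 6.88e-06, on the log2 scale. In both lines ALK7-CA for 24 h moved Sox4 more than activin B did, by 3.56, SE 0.14, adjusted p = 7.31e-08 in AJ and by 1.30, SE 0.091, adjusted p = 0.00014 in βTC3. Cells with ALK7-CA and their controls had dox for 24 h, whereas vector cells with activin B and their controls had none. Stimulus, batch and dox therefore cannot be told apart in this difference, for Sox4 or for the genes below.

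AJ cells with ALK7 and no ligand stood 2.198-fold above vector cells (log2 fold change 1.14, SE 0.082, adjusted p = 1.05e-06). The ALK7 cells had dox for 24 h and these vector cells none, so receptor and dox cannot be told apart in batch 2. In batch 1, vector cells at 24 h of dox had 6.45 ± 0.904 CPM, against 7.64 ± 0.4605 CPM at 0 h, which did not pass (log2 fold change −0.24, SE 0.11, adjusted p = 0.266). Dox left Sox4 past no threshold in βTC3 either, where vector cells held 34.4, 33.6 and 34.3 CPM at 24 h, against 34.4, 30.9 and 32.6 CPM at 0 h.

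Sox4 overlaps the antisense long noncoding gene Gm26735, with which it shares 2616 exonic bases. Gm26735 averaged 0.0187 to 1.71 CPM by group, 0.282 to 1.54% of the Sox4 mean. The kit keeps strand, but the strand setting of the counting is not given in the sources used here, so reads of the pair cannot be told apart with certainty.

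Across the 16 groups Sox4 had its highest means with ALK7-CA for 24 h, 393 ± 25.7 CPM in AJ and 149.5 ± 6.66 CPM in βTC3. Next stood AJ with ALK7 and activin B (112 ± 8.07 CPM), βTC3 with activin B (73.2 ± 6.71 CPM) and AJ with activin B (57.3 ± 4.78 CPM). The βTC3 groups with ALK7-CA for 2 h or with vector alone lay between 30.4 and 41.2 CPM, and AJ cells with ALK7 alone at 24.7 ± 0.832 CPM. The AJ vector groups were lowest, at 6.46 to 11.2 CPM. AJ cells with ALK7-CA for 2 h stood between AJ cells with ALK7 alone and the AJ vector groups, at 20.3 ± 1.25 CPM. Neighbours in this order overlapped only among βTC3 vector cells of batch 1 and between AJ vector cells at 2 and 24 h of dox.

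Vector cells without dox held less Sox4 in AJ than in βTC3, 4.21-fold in batch 1 (log2 fold change −2.07, SE 0.097, adjusted p = 1.24e-06) and 3.69-fold in batch 2 (log2 fold change −1.88, SE 0.07, adjusted p = 6.26e-08). With ALK7-CA for 24 h the order of the lines was the other way round, 393 ± 25.7 CPM in AJ and 149.5 ± 6.66 CPM in βTC3. That reversal of levels is a description, and the test behind it is the difference in effect between the lines given above.

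**Figure D2:**
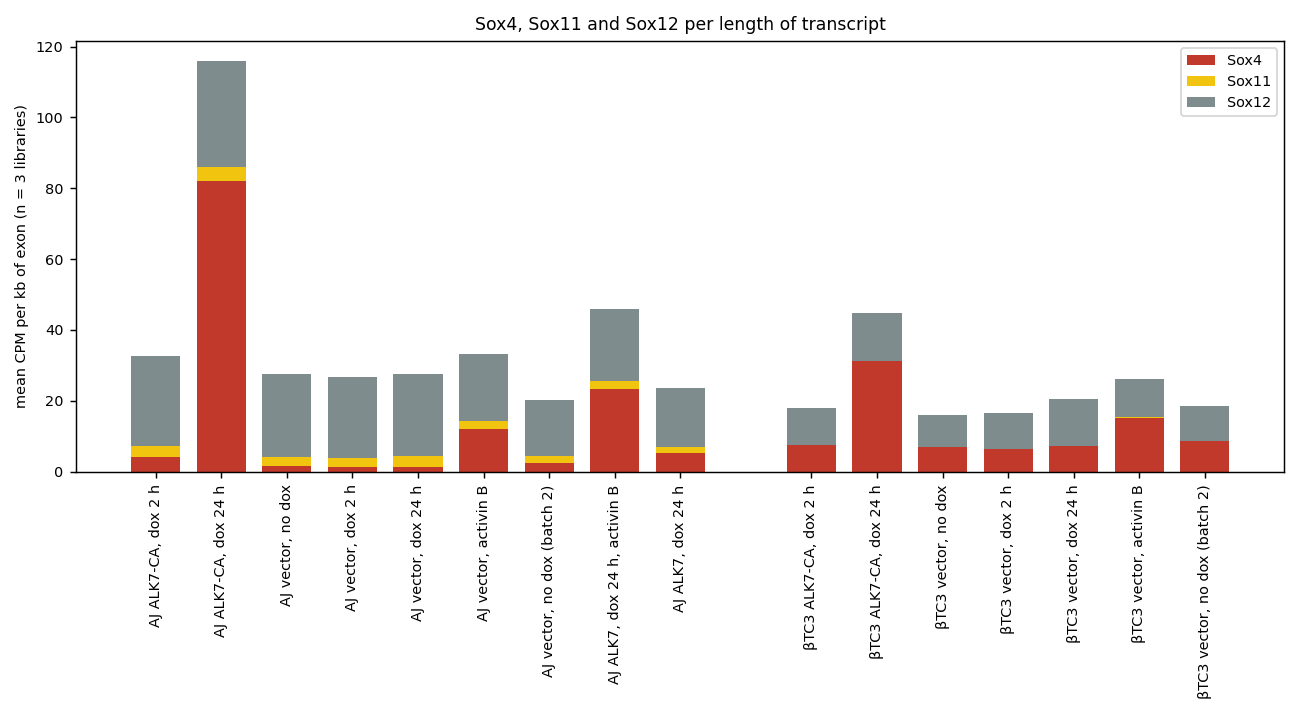
Stacked bars of mean RPKM for Sox4, Sox11 and Sox12 in each of the 16 groups, with 3 libraries per group. Sox12 makes up most of the sum in AJ vector cells, and Sox4 most of it with ALK7-CA for 24 h in both lines.

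Per length, the SoxC genes changed places. In AJ with ALK7-CA for 24 h Sox4 gave 70.7% of the summed SoxC RPKM, Sox12 25.8% and Sox11 3.41%. In AJ vector cells at 24 h Sox4 gave 4.89%, Sox12 84.02% and Sox11 11.1%. The sum itself was 116 RPKM with ALK7-CA and 27.5 RPKM with vector. Without replicate 1 of the ALK7-CA group its shares were 70.6% for Sox4, 26.2% for Sox12 and 3.195% for Sox11, and its sum 114.8 RPKM. βTC3 showed a like exchange, with Sox4 at 69.8% of the sum with ALK7-CA for 24 h and 34.8% with vector. In AJ with activin B Sox4 made up 35.95% in vector cells and 50.9% in ALK7 cells, against 11.5% in untreated vector cells. These shares are of mean levels and were not tested.

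Per length, Sox4 stood first of the 8 genes in AJ with ALK7-CA for 24 h at 81.96 ± 5.35 RPKM, and sixth with vector at 1.35 ± 0.189 RPKM. Sox12 was at 29.9 ± 3.22 RPKM with ALK7-CA, against 23.1 ± 3.78 RPKM with vector, where it stood first. Klf10 and Klf11 came next, at 19.5 ± 0.7796 and 13.1 ± 0.368 RPKM with ALK7-CA, against 7.69 ± 0.417 and 7.06 ± 0.167 RPKM with vector. Without replicate 1 the ALK7-CA means were 81.1 RPKM for Sox4, 30.04 for Sox12, 19.97 for Klf10, 13.2 for Klf11 and 0.757 for Klf5. In βTC3 Sox4 was at 31.2 ± 1.39 RPKM with ALK7-CA for 24 h, also first, against 7.11 ± 0.0987 RPKM with vector. The lowest of the 8 were Klf5 in AJ, at 0.717 ± 0.181 RPKM with ALK7-CA, against 0.708 ± 0.0805 RPKM with vector, and Sox11 in βTC3, at 0.0675 ± 0.0174 RPKM, against 0.0424 ± 0.0141 RPKM.

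Sox12, the broadly expressed SoxC member (GRCm38 chr2:152393611-152398063, minus strand, 1 exon, ENSMUSG00000051817), moved little. It rose with activin B in AJ cells. Vector cells held 81.4, 85.2 and 86.4 CPM with activin B, against 73.99, 68.4 and 69.97 CPM untreated (log2 fold change 0.25, SE 0.045, adjusted p = 0.00164). AJ cells with ALK7 held 88.9, 89.9 and 92.3 CPM with activin B, against 72.4, 70.7 and 77.3 CPM without it (log2 fold change 0.30, SE 0.045, adjusted p = 0.000249). In each case all 3 activin B libraries lay above all 3 controls, and the change was small, 1.19-fold and 1.23-fold. βTC3 gave 47.7, 51.98 and 45.1 CPM with activin B, against 48.02, 43.8 and 41.4 CPM untreated, which overlapped and did not pass (log2 fold change 0.13, SE 0.07, adjusted p = 0.238).

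With ALK7-CA for 24 h Sox12 held 132, 148 and 119 CPM in AJ, against 115, 111 and 83.6 CPM with vector. All 3 ALK7-CA libraries were above all 3 vector libraries, but the difference missed the threshold in edgeR (log2 fold change 0.37, SE 0.16, adjusted p = 0.0764; 0.38, adjusted p = 0.128 without replicate 1 of the ALK7-CA group). It passed in DESeq2 (adjusted p = 0.0449), in a range of 9.39e-05 to 0.236 over the alternatives, of which 2 of 12 passed. βTC3 held 61.8, 67.3 and 49.9 CPM with ALK7-CA, against 60.99, 67.4 and 49.4 CPM with vector, nearly the same library by library (log2 fold change 0.03, SE 0.18, adjusted p = 0.966). In batch 1 replicate 3 was the lowest library for Sox12 in 10 of 10 groups, at a median of 83.5% of the group mean, and in batch 2 in 2 of 6 groups. Sox12 was higher in AJ than in βTC3 at baseline in both batches, 2.59-fold (log2 fold change 1.38, SE 0.17, adjusted p = 0.00023) and 1.59-fold (log2 fold change 0.67, SE 0.065, adjusted p = 2.07e-05).

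**Figure D3:**
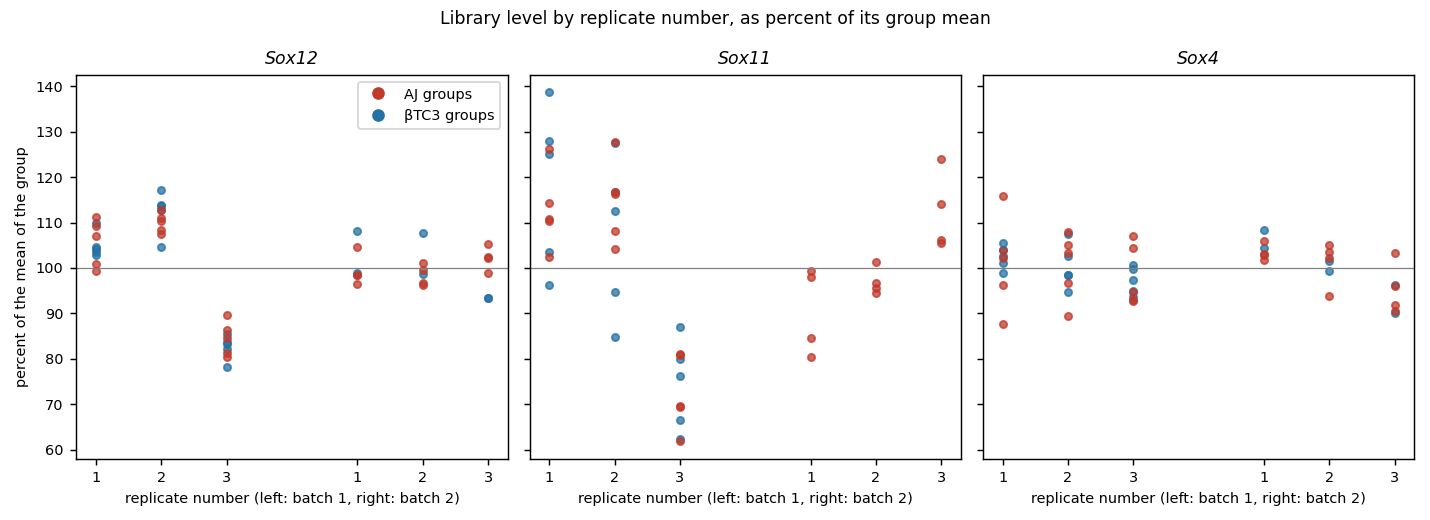
Each library's CPM of Sox12, Sox11 and Sox4 as a percent of its group's mean, by replicate number, with batch 1 on the left and batch 2 on the right and 1 point per library. Replicate 3 is lowest for Sox12 in all 10 groups of batch 1 and for Sox11 in 9 of them, but for Sox4 in 5. Sox11 in βTC3 cells of batch 2 is left out because its counts were 0 to 2.

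Sox11, a SoxC gene best known from neural development (GRCm38 chr12:27334264-27342574, minus strand, 1 exon of 8311 bp, ENSMUSG00000063632), marked the lines apart. Vector cells without dox held 22.7, 25.8 and 17.9 CPM in AJ and 0.668, 0.456 and 0.321 CPM in βTC3 in batch 1, a 46.4-fold difference (log2 fold change 5.53, SE 0.26, adjusted p = 1.36e-06). In batch 2 AJ vector cells held 15.97, 15.7 and 17.2 CPM, whereas the 3 βTC3 libraries held 1 count each. The counts of the 6 βTC3 libraries of batch 2 were 0 to 2, under the low-count filter. Those of the 15 libraries of batch 1 were 6 to 26, which is 0.994 to 4.33% of the AJ vector level at 0 h in batch 1. Medians for 36 AJ-typical transcripts, chosen after the data were seen, were 0.265 to 0.565% of their AJ level in those 15 libraries. In the βTC3 libraries of batch 2 they were 0.149 to 0.315%, partly by choice, since the untreated ones helped to pick the 36. How much of the Sox11 signal in βTC3 came from such traces was not tested.

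As fitted without a replicate block, no comparison of receptor or ligand that tested Sox11 took it past the threshold. In AJ the adjusted p ran from 0.0156 to 0.682 over the alternatives for ALK7-CA at 24 h and from 0.0285 to 0.402 for activin B with ALK7. AJ held 37.6, 38.2 and 22.8 CPM with ALK7-CA for 24 h, against 31.998, 26.4 and 17.7 CPM with vector, where the groups overlapped and replicate 3 was lowest in both (log2 fold change 0.37, SE 0.28, adjusted p = 0.332; 0.26, adjusted p = 0.571 without replicate 1 of the ALK7-CA group). With activin B AJ vector cells held 15.8, 18.7 and 24.3 CPM, against 15.97, 15.7 and 17.2 CPM untreated, again overlapping (log2 fold change 0.26, SE 0.14, adjusted p = 0.221). In AJ cells with ALK7 the values were 18.98, 18.1 and 20.3 CPM with activin B, against 13.2, 15.8 and 17.8 CPM without it, every activin B library above every control but short of the threshold (log2 fold change 0.30, SE 0.14, adjusted p = 0.13).

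Klf10 and Klf11, the TGF-β-inducible early genes, both rose in AJ at 2 and 24 h of ALK7-CA, and in βTC3 at 24 h Klf11 alone did. Klf10 (GRCm38 chr15:38291463-38300706, minus strand, 10 merged exons, ENSMUSG00000037465) held 78.2, 84.6 and 82.3 CPM in AJ with ALK7-CA for 24 h, against 31.7, 30.6 and 34.04 CPM with vector (log2 fold change 1.35, SE 0.056, adjusted p = 6.35e-10; 1.38, adjusted p = 5.25e-09 without replicate 1 of the ALK7-CA group). At 2 h it held 52.97, 53.5 and 56.4 CPM, against 32.4, 32.2 and 34.8 CPM with vector (log2 fold change 0.70, SE 0.055, adjusted p = 1.76e-06). Neither pair of groups overlapped. The 24 h effect was the larger by 0.64, SE 0.078, adjusted p = 5.36e-05.

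In βTC3 Klf10 held 44.8, 46.3 and 50.3 CPM with ALK7-CA for 24 h, against 43.5, 43.7 and 44.02 CPM with vector. These groups did not overlap, yet the difference was small and did not pass (log2 fold change 0.12, SE 0.062, adjusted p = 0.254). At 2 h the βTC3 groups overlapped, with means of 73.8 ± 6.05 CPM with ALK7-CA and 71.98 ± 2.497 CPM with vector (log2 fold change 0.04, SE 0.061, adjusted p = 0.94). The 24 h effect was larger in AJ than in βTC3 by 1.22, SE 0.08, adjusted p = 2.42e-06. Dox alone moved the βTC3 level: vector cells held 43.5, 43.7 and 44.02 CPM at 24 h, against 68.6, 62.6 and 70.7 CPM at 0 h, a fall to 0.656 of the level (log2 fold change −0.61, SE 0.062, adjusted p = 2.27e-05). AJ vector cells held 31.7, 30.6 and 34.04 CPM at 24 h, against 31.95, 32.9 and 33.4 CPM at 0 h, which overlapped (log2 fold change −0.03, SE 0.056, adjusted p = 0.882).

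Activin B raised Klf10 in each setting. βTC3 held 43.4, 45.2 and 46.9 CPM with activin B, against 33.4, 35.7 and 32.9 CPM untreated (log2 fold change 0.42, SE 0.054, adjusted p = 0.00102). AJ vector cells held 43.6, 41.4 and 38.6 CPM with activin B, against 30.4, 32.5 and 32.4 CPM untreated (log2 fold change 0.38, SE 0.07, adjusted p = 0.00202), and AJ cells with ALK7 held 52.9, 53.6 and 50.3 CPM, against 30.8, 31.8 and 26.9 CPM without activin B (log2 fold change 0.81, SE 0.07, adjusted p = 3.16e-06). None of these pairs overlapped. The effect was larger with ALK7 than with vector by 0.44, SE 0.098, adjusted p = 0.0383. That call was lost in 10 of the 12 fits that left out 1 library (adjusted p up to 0.102), and was kept without vector activin B replicate 1 and without ALK7 replicate 2. The ALK7 cells had dox for 24 h and the vector cells none, so receptor and dox cannot be told apart in this difference. In βTC3 the activin B effect was not shown to differ from the ALK7-CA effect at 24 h (ALK7-CA minus activin B −0.30, SE 0.078, adjusted p = 0.0966). With the replicate number as a block the adjusted p was 0.0284, and it ran from 0.0284 to 0.239 over all alternatives, passing also without βTC3 ALK7-CA 24 h replicate 3 (0.0434). In AJ, ALK7-CA for 24 h moved Klf10 more than activin B did, by 0.96, SE 0.088, adjusted p = 2.4e-05.

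Klf11 (GRCm38 chr12:24651274-24662789, plus strand, 6 merged exons, ENSMUSG00000020653), whose product binds the insulin promoter, rose in the same 6 of 7 comparisons as Sox4. Its rises ran from 1.29-fold to 1.85-fold. In AJ with ALK7-CA for 24 h it held 55.2, 58.4 and 56.5 CPM, against 29.9, 30.7 and 31.3 CPM with vector (log2 fold change 0.89, SE 0.058, adjusted p = 4.76e-08; 0.91, adjusted p = 3.42e-07 without replicate 1 of the ALK7-CA group). At 2 h AJ held 38.9, 34.5 and 38.7 CPM, against 28.7, 28.3 and 29.04 CPM with vector (log2 fold change 0.37, SE 0.058, adjusted p = 0.000574). βTC3 held 33.04, 33.2 and 31.1 CPM with ALK7-CA for 24 h, against 20.7, 22.4 and 20.6 CPM with vector (log2 fold change 0.63, SE 0.078, adjusted p = 8.08e-05). None of these groups overlapped. At 2 h βTC3 held 26.05, 23.02 and 24.5 CPM, against 21.7, 20.5 and 20.95 CPM with vector, which did not pass (log2 fold change 0.22, SE 0.078, adjusted p = 0.248).

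With activin B Klf11 held 28.6, 27.6 and 27.3 CPM in βTC3, against 16.5, 17.8 and 17.9 CPM untreated (log2 fold change 0.69, SE 0.062, adjusted p = 0.000171). AJ vector cells held 36.98, 34.4 and 31.8 CPM, against 25.6, 26.2 and 21.4 CPM untreated (log2 fold change 0.49, SE 0.08, adjusted p = 0.000827). AJ cells with ALK7 held 55.5, 58.7 and 54.4 CPM with activin B, against 37.3, 37.2 and 35.7 CPM without it (log2 fold change 0.62, SE 0.078, adjusted p = 7.26e-05). The control level of that last pair was itself raised, since ALK7 cells without ligand stood 1.49-fold above vector cells without dox (log2 fold change 0.58, SE 0.08, adjusted p = 0.000204).

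The 24 h effect on Klf11 exceeded the 2 h effect in AJ by 0.52, SE 0.082, adjusted p = 0.000496. In βTC3 it did so by 0.40 (SE 0.11, adjusted p = 0.0488), but that call was lost whichever of the 12 libraries was left out (adjusted p 0.0503 to 0.134). The lines were not shown to differ in the 24 h effect (AJ minus βTC3 0.26, SE 0.086, adjusted p = 0.0639; 0.27, adjusted p = 0.0886 without AJ ALK7-CA 24 h replicate 1), with an adjusted p of 0.0243 to 0.166 over the alternatives. It passed in 5 of 17 of them, DESeq2 (adjusted p = 0.0243) and the fit without AJ vector 24 h replicate 3 (0.0479) included. ALK7-CA for 24 h moved Klf11 more than activin B in AJ by 0.39, SE 0.12, adjusted p = 0.0422. This call was lost in 9 of 12 fits that left out 1 library (adjusted p up to 0.0999), AJ ALK7-CA 24 h replicate 1 among them (0.0585), and was kept without vector 24 h replicate 3, vector untreated replicate 3 or vector activin B replicate 1. At baseline Klf11 was higher in AJ than in βTC3, 1.59-fold in batch 1 (adjusted p = 0.000608) and 1.404-fold in batch 2 (adjusted p = 0.00185).

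**Figure D4:**
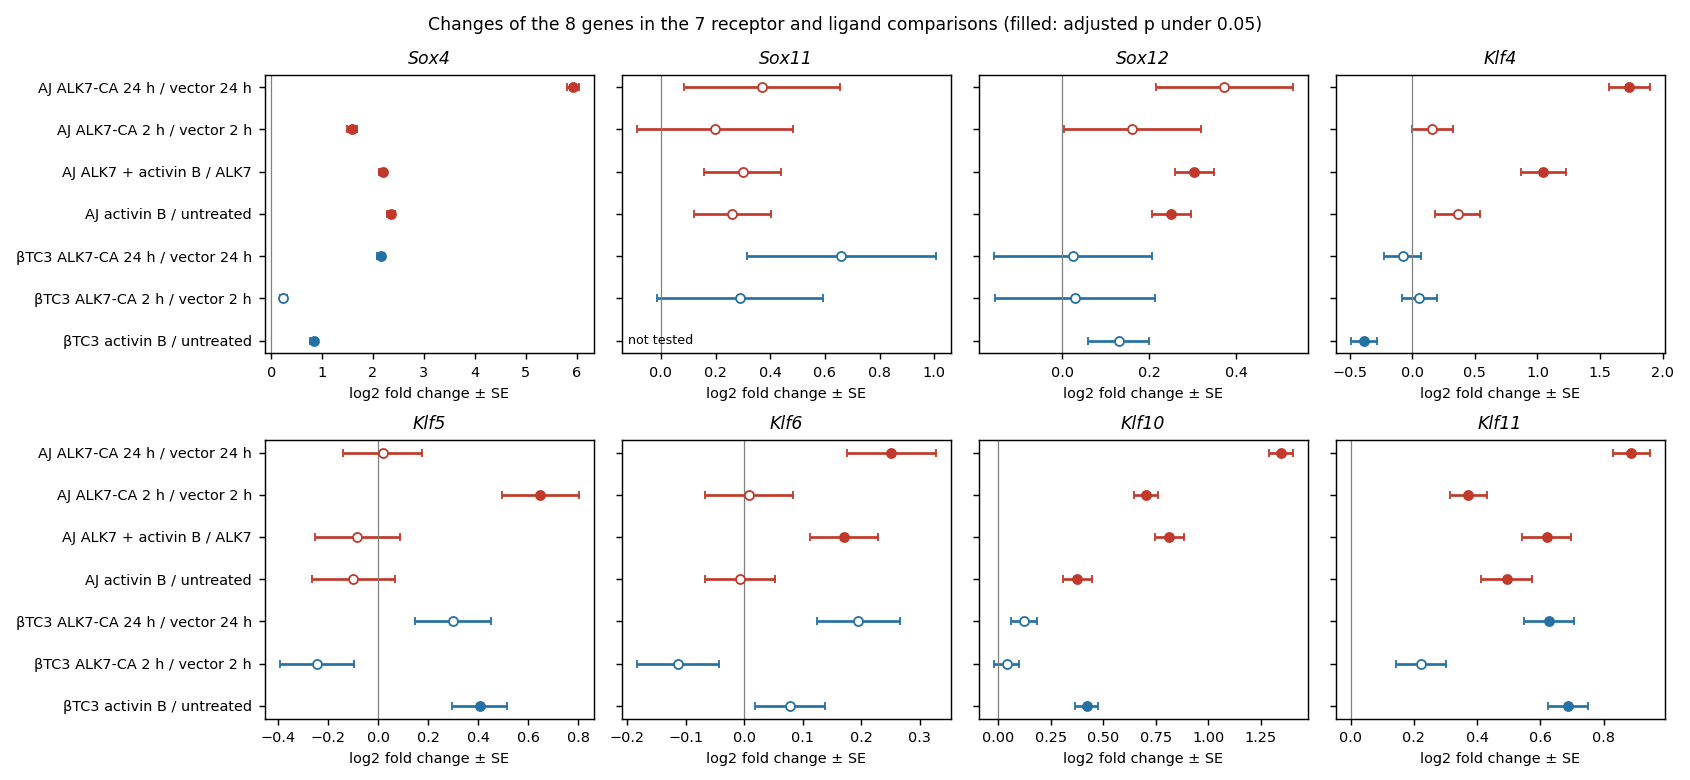
Log2 fold changes with SE of the 8 genes in the 7 comparisons of ALK7-CA or activin B with their controls, AJ in red and βTC3 in blue. Filled points passed at an adjusted p under 0.05. Sox4 in AJ with ALK7-CA for 24 h lies at 5.93, and no filled point but Klf4 with activin B in βTC3 lies below 0. Sox11 was not tested in βTC3 with activin B.

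Klf4, one of the factors that reprogram cells to pluripotency (GRCm38 chr4:55527143-55532466, minus strand, 5 merged exons, ENSMUSG00000003032), moved differently in the lines. AJ held 9.002, 7.998 and 6.87 CPM with ALK7-CA for 24 h, against 2.34, 2.56 and 2.27 CPM with vector (log2 fold change 1.73, SE 0.16, adjusted p = 1.58e-06; 1.64, adjusted p = 9.68e-06 without replicate 1 of the ALK7-CA group). βTC3 held 7.03, 6.56 and 5.95 CPM with ALK7-CA for 24 h, against 7.28, 7.22 and 6.34 CPM with vector, overlapping groups that did not pass (log2 fold change −0.08, SE 0.14, adjusted p = 0.839). The 24 h effects differed between the lines by 1.81, SE 0.18, adjusted p = 5.61e-05 (AJ minus βTC3). At 2 h Klf4 did not pass in either line. AJ at 2 h had 2.79, 3.27 and 2.396 CPM with ALK7-CA and 2.49, 2.43 and 2.63 CPM with vector (log2 fold change 0.16, SE 0.16, adjusted p = 0.619), and the 24 h effect exceeded this one by 1.58, SE 0.23, adjusted p = 0.000251.

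Activin B raised Klf4 in AJ cells with ALK7, to 5.15, 6.502 and 7.68 CPM, against 2.89, 2.99 and 3.54 CPM without it (log2 fold change 1.05, SE 0.18, adjusted p = 0.000706). AJ vector cells held 3.46, 3.51 and 4.799 CPM with activin B, against 2.71, 3.35 and 3.07 CPM untreated, with no overlap but short of the threshold (log2 fold change 0.36, SE 0.18, adjusted p = 0.193). The effect with ALK7 was not shown to differ from that with vector (0.68, SE 0.25, adjusted p = 0.245). In βTC3 Klf4 fell with activin B, to 4.36, 4.17 and 4.85 CPM, against 5.76, 5.85 and 5.996 CPM untreated (log2 fold change −0.39, SE 0.11, adjusted p = 0.0339). The groups did not overlap, but the call was lost in DESeq2 (adjusted p = 0.15, range over alternatives 0.0303 to 0.15) and without any 1 library other than activin B replicate 3 (0.0766 to 0.114). The activin B effects differed between the lines by 0.75, SE 0.20, adjusted p = 0.0382 (AJ minus βTC3), a call lost in 8 of 12 fits that left out 1 library (up to 0.0989). It was kept without βTC3 activin B replicate 3, AJ untreated replicate 2 or AJ activin B replicate 1 or 2.

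In AJ the effect of ALK7-CA for 24 h on Klf4 exceeded that of activin B by 1.36, SE 0.23, adjusted p = 0.00176. At baseline Klf4 was lower in AJ than in βTC3, 3.25-fold in batch 1 (log2 fold change −1.70, SE 0.17, adjusted p = 7.2e-05) and 1.93-fold in batch 2 (log2 fold change −0.95, SE 0.13, adjusted p = 0.000204). Depth limits Klf4, whose counts ran from 54 to 314 per library, and Klf5, whose counts ran from 44 to 272.

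Klf5, a factor of epithelial and proliferating cells (GRCm38 chr14:99298691-99315036, plus strand, 4 merged exons, ENSMUSG00000005148), rose in AJ at 2 h. With ALK7-CA for 2 h it held 6.83, 6.998 and 6.502 CPM, against 4.18, 4.56 and 4.14 CPM with vector, with no overlap (log2 fold change 0.65, SE 0.15, adjusted p = 0.0103). By 24 h it held 3.32, 4.81 and 3.06 CPM, against 4.17, 3.47 and 3.41 CPM with vector, overlapping and not past the threshold (log2 fold change 0.02, SE 0.16, adjusted p = 0.946; 0.09, adjusted p = 0.72 without replicate 1 of the ALK7-CA group). The difference between the times itself missed the threshold (−0.63, SE 0.22, adjusted p = 0.0579; −0.56, adjusted p = 0.123 without AJ ALK7-CA 24 h replicate 1), with adjusted p from 0.00452 to 0.138 over the alternatives. Without AJ ALK7-CA 24 h replicate 2 it passed (0.00452).

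In βTC3 ALK7-CA did not move Klf5 past the threshold at 2 h (log2 fold change −0.24, SE 0.15, adjusted p = 0.649) or 24 h (log2 fold change 0.30, SE 0.15, adjusted p = 0.262). With activin B βTC3 held 6.35, 5.62 and 6.59 CPM, against 4.52, 5.05 and 4.56 CPM untreated (log2 fold change 0.41, SE 0.11, adjusted p = 0.0335). Those groups did not overlap, but the call was lost in DESeq2 (adjusted p = 0.144, range over alternatives 0.035 to 0.144) and without any 1 library other than activin B replicate 2 (0.0548 to 0.121). In AJ activin B left Klf5 past no threshold, at 3.26 ± 0.576 CPM, against 3.498 ± 0.2205 CPM in vector cells (log2 fold change −0.10, SE 0.16, adjusted p = 0.736), and at 2.44 ± 0.361 CPM, against 2.603 ± 0.306 CPM in ALK7 cells (log2 fold change −0.08, SE 0.17, adjusted p = 0.761).

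Klf6, a widely expressed immediate early factor (GRCm38 chr13:5861482-5870394, plus strand, 5 merged exons, ENSMUSG00000000078), changed little where it passed. AJ held 26.8, 25.5 and 27.4 CPM with ALK7-CA for 24 h, against 21.7, 20.7 and 24.6 CPM with vector (log2 fold change 0.25, SE 0.076, adjusted p = 0.0173; 0.25, adjusted p = 0.0443 without replicate 1 of the ALK7-CA group). The call was lost without vector 24 h replicate 1 (0.061) or 2 (0.0784) or ALK7-CA replicate 3 (0.0606), in a range of 0.00469 to 0.0784 over the alternatives. In AJ cells with ALK7 it held 33.3, 33.9 and 30.4 CPM with activin B, against 28.5, 28.6 and 29.98 CPM without it (log2 fold change 0.17, SE 0.058, adjusted p = 0.0413). That call was lost in DESeq2 (0.0959) and without any 1 library other than ALK7 activin B replicate 3, in a range of 0.0206 to 0.145.

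βTC3 held 50.9, 49.99 and 54.96 CPM with ALK7-CA for 24 h, against 44.4, 44.9 and 48.2 CPM with vector. Every ALK7-CA library was above every vector library, and the difference did not pass (log2 fold change 0.20, SE 0.071, adjusted p = 0.0925) except with the replicate number as a block (adjusted p = 0.00352, range over alternatives 0.00352 to 0.262). The block also took the difference between its 24 h and 2 h effects past the threshold (0.31, adjusted p = 0.0029 with the block and 0.1 without, range 0.0029 to 0.288). Klf6 also fell under dox alone in both lines. βTC3 vector cells held 44.4, 44.9 and 48.2 CPM at 24 h, against 60.7, 51.97 and 62.7 CPM at 0 h (log2 fold change −0.34, SE 0.071, adjusted p = 0.00409). AJ vector cells held 21.7, 20.7 and 24.6 CPM at 24 h, against 28.2, 29.3 and 29.9 CPM at 0 h (log2 fold change −0.38, SE 0.076, adjusted p = 0.0195), a call lost in 5 of 6 fits that left out 1 library (0.0536 to 0.0888), all but that without 24 h replicate 3. AJ cells with ALK7 and dox stood 1.28-fold above vector cells without dox (log2 fold change 0.35, SE 0.059, adjusted p = 0.000794).

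Dox alone for 24 h in βTC3 vector cells gave 4 calls among the 8 genes, where 23.3% of tested genes changed, 10.6% upward and 12.7% downward. Klf6 and Klf10 fell as described. Klf5 fell, to 3.88, 4.44 and 3.48 CPM at 24 h, against 6.01, 6.25 and 5.13 CPM at 0 h (log2 fold change −0.55, SE 0.15, adjusted p = 0.0192), a call lost without 24 h replicate 1 or 3 or 0 h replicate 1 or 2 (0.0611 to 0.0783). Sox12 rose, to 60.99, 67.4 and 49.4 CPM at 24 h, against 42.3, 47.5 and 31.6 CPM at 0 h (log2 fold change 0.56, SE 0.18, adjusted p = 0.0422), a call lost without 24 h replicate 1 or 2 or 0 h replicate 1 or 3 (0.0746 to 0.155). Klf4 had 6.94 ± 0.529 CPM at 24 h and 8.99 ± 0.541 CPM at 0 h, which passed only with the replicate block (adjusted p = 0.00448, 0.0908 without it, range 0.00448 to 0.238). In AJ 24 h of dox gave 1 call of 8, Klf6, where 2.71% of genes changed, 1.27% downward. After 2 h of dox edgeR and DESeq2 each called 0 of 8 in both lines, with 0 in βTC3 and 1 in AJ (Klf11) at an unadjusted p under 0.05, where 0.00633% and 0.0% of tested genes changed.

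Between untreated vector cells of the lines 7 of 8 genes differed in each batch, where 72.1% of tested genes differed in batch 1 (35.6% higher and 36.5% lower in AJ) and 76.1% in batch 2 (38.5% and 37.6%). Sox11, Sox12 and Klf11 were higher in AJ, and Sox4, Klf4 and Klf6 lower in AJ, in both. Klf6 had 29.1 ± 0.838 CPM in AJ and 58.5 ± 5.7004 CPM in βTC3 in batch 1. Klf10 was lower in AJ in batch 1, with 32.8 ± 0.751 CPM in AJ and 67.3 ± 4.17 CPM in βTC3 (log2 fold change −1.02, SE 0.072, adjusted p = 1.01e-05), but not past the threshold in batch 2, with 31.8 ± 1.18 CPM in AJ and 33.98 ± 1.47 CPM in βTC3 (log2 fold change −0.10, SE 0.06, adjusted p = 0.172). Klf5 missed in batch 1 (log2 fold change −0.37, SE 0.15, adjusted p = 0.0555), passing there without βTC3 replicate 3 (0.019) or AJ replicate 2 (0.049). It passed in batch 2 (log2 fold change −0.43, SE 0.13, adjusted p = 0.0158), where it was lost in DESeq2 (0.0694) and without βTC3 replicate 2 (0.0612).

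For the differences between effects, the members called were 2 of 8 for time in βTC3 and 4 of 8 for time in AJ, where 5.85% (3.68% positive) and 21.0% (10.8% positive) of tested genes passed. They were 3 for ALK7-CA at 24 h and 2 for activin B between lines, where 17.5% (8.32% positive) and 9.12% (4.61% positive) passed. For activin B with ALK7 against vector 1 was called, where 2.56% (1.15% positive) passed. For ALK7-CA against activin B 4 were called in AJ and 1 in βTC3, where 15.6% (7.27% positive) and 1.36% (1.08% positive) passed. All 17 of these differences were positive. Without AJ ALK7-CA 24 h replicate 1 the differences by time in AJ were 4.32, adjusted p = 7.87e-09 for Sox4, 1.48, adjusted p = 0.00079 for Klf4, 0.67, adjusted p = 9.92e-05 for Klf10 and 0.53, adjusted p = 0.000998 for Klf11. Those between lines were 1.70, adjusted p = 8.89e-05 for Klf4 and 1.24, adjusted p = 8.3e-06 for Klf10. Those between ALK7-CA and activin B in AJ were 3.54, adjusted p = 5.84e-07 for Sox4, 1.26, adjusted p = 0.00452 for Klf4 and 0.99, adjusted p = 5.7e-05 for Klf10.

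**Figure D5:**
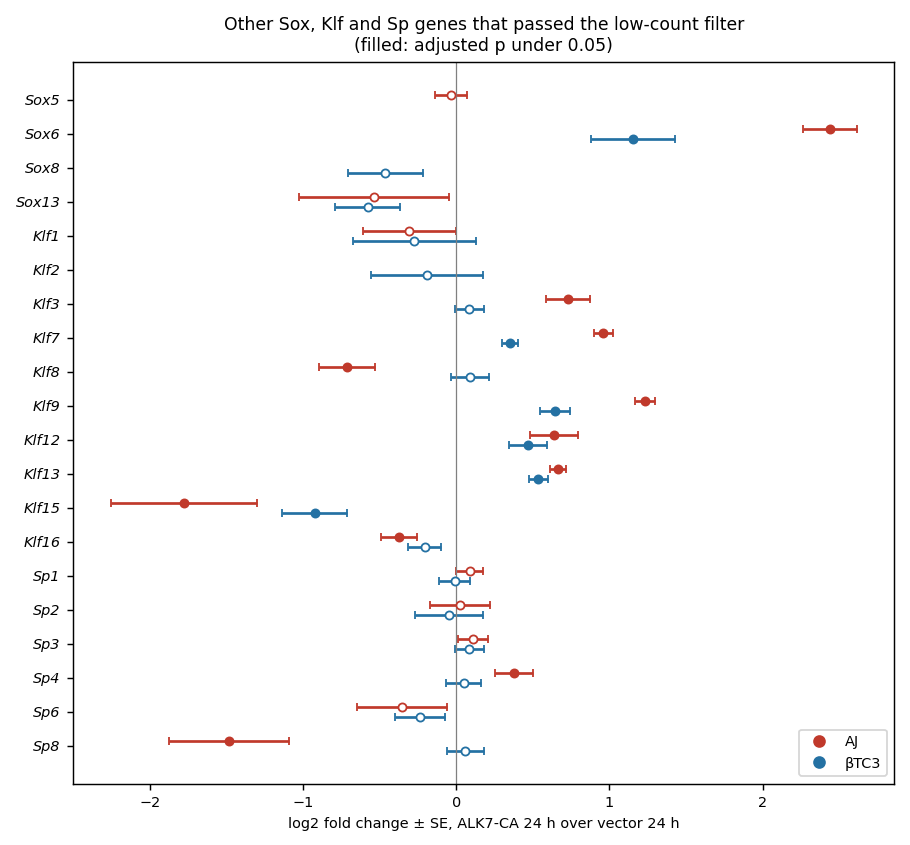
Log2 fold changes with SE of the other tested Sox, Klf and Sp genes with ALK7-CA for 24 h, AJ in red and βTC3 in blue, filled where the adjusted p was under 0.05. Sox6 and Klf9 lie above 0 and are filled in both lines, and Klf8, Klf15, Klf16 and Sp8 are filled below 0 in AJ.

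For other genes of these families and pathways the counts below, with log2 fold changes in parentheses, are descriptions. They stand beside the shares of all tested genes that changed. With ALK7-CA for 24 h these were 40.7% in AJ (20.8% upward) and 13.5% in βTC3 (8.02% upward), and at 2 h 15.8% and 1.53%. With activin B they were 22.5% in AJ vector cells, 32.8% in AJ cells with ALK7 and 22.2% in βTC3. Without AJ ALK7-CA 24 h replicate 1 the share in AJ at 24 h was 37.0%, and the counts there that changed were those of further Sox genes and of genes linked to Klf10 and Klf11, given below, with no other count changed among the lists described from here to the insulin genes. Of 12 further Klf genes, 9 were tested in AJ with ALK7-CA for 24 h, where 40.7% of all tested genes changed, and 5 rose and 3 fell. Klf9 held 64.2 ± 4.37 CPM with ALK7-CA, against 27.4 ± 1.75 CPM with vector (1.23, SE 0.065, adjusted p = 5.77e-09), and Klf7 82.6 ± 3.23 CPM, against 42.5 ± 3.35 CPM (0.96, SE 0.064, adjusted p = 5.29e-08). The falls were those of Klf15 (−1.78), Klf8 (−0.72) and Klf16 (−0.38), genes named after their values were seen. In βTC3, where 13.5% of tested genes changed, 4 rose and 1 fell of 10 tested, Klf13 (0.54, SE 0.062, adjusted p = 3.83e-05) and Klf9 (0.65, SE 0.096, adjusted p = 0.00039) with the smallest adjusted p. At 2 h 3 of 9 rose in AJ, Klf13 and Klf7 first, and in βTC3 none of 10 passed in edgeR, with 2 at an unadjusted p under 0.05. With activin B 3 rose and 1 fell of 9 in βTC3, 4 of 8 rose in AJ vector cells, and 4 rose and 2 fell of 8 in AJ cells with ALK7.

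Most of the 16 further Sox genes were below the filter, and 3 were tested with ALK7-CA for 24 h in each line. Sox6 rose in AJ, with 17.5 ± 0.613 CPM, against 3.23 ± 0.368 CPM with vector (2.44, SE 0.18, adjusted p = 1.32e-07), and in βTC3, with 1.399 ± 0.503 CPM, against 0.632 ± 0.0868 CPM (1.15, SE 0.28, adjusted p = 0.0118). In AJ it was the 1 that passed of 3. Without ALK7-CA replicate 1, 2 of 3 passed, Sox6 rising and Sox13 falling (−1.40, adjusted p = 0.0336 in edgeR). Sox13, named after its value was seen, was near the floor with all libraries. It held 0.331 ± 0.278 CPM with ALK7-CA, against 0.466 ± 0.113 CPM with vector, and did not pass (−0.54, adjusted p = 0.422 in edgeR). Sox5 rose with activin B in AJ vector cells (1.03, SE 0.088, adjusted p = 5.06e-06) and in AJ cells with ALK7 (0.82, SE 0.087, adjusted p = 1.75e-05). Of 9 Sp genes, the zinc finger relatives of the Klf family, 6 were tested with ALK7-CA for 24 h. In AJ Sp4 rose (0.38, SE 0.12, adjusted p = 0.0261) and Sp8 fell (−1.49, SE 0.39, adjusted p = 0.00766), 2 of 6 where 40.7% of all tested genes changed, and in βTC3 edgeR called 0, with 0 at an unadjusted p under 0.05.

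Of 12 feedback genes of SMAD signalling, among them the inhibitory Smad7, 11 of 12 tested rose in AJ with ALK7-CA for 24 h, where 20.8% of all tested genes rose, and 6 of 11 in βTC3, where 8.02% rose. Smad7 rose by 3.41 (log2) in AJ and 1.54 in βTC3 at 24 h. At 2 h it rose by 2.40 in AJ and 1.12 in βTC3. With activin B 7 of 11 feedback genes rose in AJ vector cells, 10 of 11 in AJ cells with ALK7 and 9 of 10 in βTC3, where 11.6%, 16.5% and 12.3% of all tested genes rose. Of 10 receptor and SMAD core genes 3 rose and 1 fell of 8 tested in AJ with ALK7-CA for 24 h, and 2 fell of 9 in βTC3, beside 40.7% and 13.5% of all tested genes. Acvr1c was among the falls in both lines, at 3.701 ± 1.99 CPM with ALK7-CA, against 10.3 ± 0.966 CPM with vector in AJ (−1.48, SE 0.26, adjusted p = 0.00042), and 76.7 ± 8.89 CPM, against 123 ± 10.8 CPM in βTC3 (−0.66, SE 0.11, adjusted p = 0.00122). Without AJ ALK7-CA 24 h replicate 1 the change of Acvr1c in AJ was −2.01, SE 0.145, adjusted p = 3.7e-07 in edgeR.

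Lists tied to Sox4 or to Klf10 and Klf11 were mixed in direction. Of 6 neuronal genes linked to SoxC factors, 2 of 4 tested rose in AJ with ALK7-CA for 24 h, where 20.8% of all tested genes rose. Tubb3, a neuronal tubulin, held 421 ± 28.9 CPM with ALK7-CA, against 105 ± 23.01 CPM with vector (2.00, SE 0.20, adjusted p = 3.06e-06), and Dcx, a microtubule-binding protein, changed by 0.49, SE 0.089, adjusted p = 0.000562. In βTC3, where 8.02% of tested genes rose, 3 of 5 rose, Stmn2 (0.71, SE 0.13, adjusted p = 0.00234) and Dcx (0.40, SE 0.089, adjusted p = 0.00777) among them. With activin B in βTC3 Tubb3 rose (0.60, log2) and Dcx fell (−0.40), and in AJ vector cells Tubb3 rose (0.56) while Map2 fell (−0.22).

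Of 8 regulators of epithelial to mesenchymal transition, 1 of 4 tested rose in AJ with ALK7-CA for 24 h, Zeb2 (0.69, SE 0.092, adjusted p = 4.11e-05), where 20.8% of all tested genes rose. In βTC3 1 rose, Zeb2 (0.77, SE 0.12, adjusted p = 0.000447), and 1 fell, Snai2 (−0.40, SE 0.12, adjusted p = 0.0358), of 6 tested, where 13.5% of all tested genes changed. Zeb2 did not keep 1 direction under activin B. It fell in AJ cells with ALK7, to 29.6 ± 1.84 CPM with activin B, against 38.3 ± 4.56 CPM without it (−0.37, SE 0.095, adjusted p = 0.0103), and rose in βTC3 (0.42, SE 0.12, adjusted p = 0.04). Of 8 BH3-only genes, which promote apoptosis, 3 rose and 2 fell in AJ and 3 rose and 1 fell in βTC3, beside 40.7% and 13.5% of all tested genes, led by Bmf at 4.25 (log2) in AJ and 3.92 in βTC3.

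Of 7 genes linked to Klf10 and Klf11, 4 rose and 2 fell in AJ with ALK7-CA for 24 h, where 40.7% of all tested genes changed, but 2 rose and 2 fell without replicate 1 of the ALK7-CA group. The 2 rises that rested on that library were those of the insulin genes Ins1 and Ins2, named after their values were seen. Ins1 held 166.4, 1.26 and 0.909 CPM in the 3 ALK7-CA libraries, and Ins2 605.2, 0.0717 and 0.135 CPM. Replicate 1 alone was high in both. Summed, the 7 genes held 1098, 288.9 and 277.5 CPM. Cdkn2b, a cell cycle inhibitor, rose (1.62, SE 0.20, adjusted p = 1.8e-05; 1.53, adjusted p = 0.000109 without replicate 1), and Pdx1, a beta cell factor, fell (−0.57, SE 0.085, adjusted p = 0.000111; −0.66, adjusted p = 3.2e-05 without it). In βTC3, where 13.5% of tested genes changed, 1 rose, Cdkn1a (0.25, SE 0.064, adjusted p = 0.0199), and 2 fell, with Maob, a monoamine oxidase, at −0.45, SE 0.069, adjusted p = 0.000448. With activin B in βTC3 4 of these 7 fell, where 9.97% of all tested genes fell, among them Maob (−0.50, log2) and Ins2 (−0.48).

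Ductal markers differed in summed level beside Sox4 in some groups. Summed over 7 genes they stood at 38.1 to 40.9 CPM in βTC3 with ALK7-CA for 24 h and 15.8 to 17.3 CPM in vector cells, with Krt19 at 0 in the ALK7-CA group. With activin B in βTC3 they stood at 33.6 to 37.4 CPM, against 14.1 to 14.3 CPM untreated, with Krt19 again at 0. In AJ with ALK7-CA for 24 h, where Sox4 was highest, they stood at 12.9 to 13.7 CPM, against 14.2 to 17.5 CPM with vector, while at 2 h they stood at 33.0 to 42.5 CPM with ALK7-CA, against 16.0 to 19.9 CPM with vector. The 24 h sum in AJ hid opposite moves. Of 5 ductal markers tested there 2 rose and 1 fell, with and without replicate 1, where 40.7% of all tested genes changed. Krt7 (log2 fold change 2.55, adjusted p = 2.19e-05 in edgeR) and Cftr (3.24, adjusted p = 9.16e-08) rose, and Spp1 fell (−1.12, adjusted p = 9.53e-06), genes named after their values were seen. In AJ with ALK7 and no ligand the 7 ductal markers stood at 10.3 to 12.1 CPM, against 2.47 to 3.03 CPM in untreated vector cells. Krt19 was at 0 in both. The ALK7 cells had dox for 24 h and these vector cells none, so receptor and dox cannot be told apart. A sum follows its most abundant genes, so these sums do not show that each ductal marker moved. The beta cell and endocrine list, summed over 14 genes, stood at 7331 to 8422 CPM in AJ with ALK7-CA for 24 h, against 10655 to 10951 CPM in vector cells. The 8422 CPM was that of ALK7-CA replicate 1, and replicates 2 and 3 held 7331 and 7443 CPM. With all libraries the tests called 3 of the 14 genes upward and 6 downward, beside 40.7% of all tested genes. Once replicate 1 was dropped they called 0 upward and 7 downward, beside 37.0% of all tested genes. The part of either list in the rises of Sox4 and the Klf genes was not tested.

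After each line and batch was centred on its own mean of log2(CPM + 0.5), the genes most like Sox4 over the 48 libraries, among 10800, were Syt11 (Pearson r 0.95, Spearman rho 0.91), Man1c1 (0.95 and 0.89) and Ppp2r2c (0.95 and 0.92). The single most like gene was Srgap1 for Klf11 (0.96 and 0.92), Arhgef18 for Klf4 (0.95 and 0.90), Ccdc97 for Sox12 (0.95 and 0.93), Klf7 for Klf10 (0.91 and 0.85), Junb for Sox11 (0.86 and 0.81), Tmem144 for Klf6 (0.84 and 0.86) and Dhx32 for Klf5 (0.73 and 0.71). Among the members Sox4 ran closest to Klf11 (0.86 and 0.82), then to Klf4 (0.71 and 0.48) and Klf10 (0.70 and 0.59), and Klf4 to Klf10 (0.77 and 0.65). Sox4 and Klf5 gave −0.19 and −0.06. The points share groups and libraries, so these values describe likeness of pattern and carry no test.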

How the data were processed

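Per the labels' protocols, Trizol RNA went into the TruSeq stranded mRNA kit. The submitters' processing notes name mm10 as the build and, as tools, HISAT2, featureCounts 1.4.4, cutadapt 1.4.2, edgeR and bcl2fastq 2.17. The sources used here give neither the strand option, the annotation, the order of the tools nor the versions of HISAT2 and edgeR. The deposited tables hold counts, whole reads per Ensembl gene. The per-sample columns equalled the series table in 48 of 48 cases, 0 columns belonged to no sample of the series, and a deposited table of normalized values was not used. Replicate pairs were never identical (chi-square per gene 6.34 to 51.1).

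Symbols and positions came from GENCODE M21 (GRCm38), which named 37607 of 39017 identifiers. Tests ran in edgeR 4.0.16 (R 4.3.3) on TMM-scaled counts of genes kept by filterByExpr, with a minimum count of 10, a total of 15 and a proportion of 0.7. Quasi-likelihood F test p-values were Benjamini-Hochberg adjusted over all genes tested, and 0.05 was the threshold. One fit covered all groups of a line and batch, and a comparison across lines or batches had a fit of just its groups. SE is |log2 fold change| divided by √F. The 21 comparisons were 7 of receptor or ligand, 1 of ALK7 against vector, 4 of dox, 2 of lines and 7 differences between effects. The fits were tested on simulated data. Alternatives were DESeq2 1.42.0, RLE scaling, no filter, a filter of 1 CPM in 3 libraries, the contrast's groups only, the replicate block and leaving out each library.

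The members and the gene lists were chosen with earlier results of these data known. All 8 members are named in every comparison. From each list up to 2 genes with the smallest adjusted p were nameable in each of the 7 main comparisons, besides Smad7, Bcl2l11 and Bmf. Likeness used genes with a mean of at least 5 CPM. The AJ-typical transcripts had a mean of at least 20 CPM in AJ and under 0.5 CPM in βTC3 untreated vector libraries of batch 2. The βTC3-typical ones had at least 100 CPM in βTC3 and under 0.5 CPM in AJ at 0 h in batch 1.

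Groups share replicate numbers. On 8922 genes with a mean log2 CPM over 4, same-numbered libraries deviated together (every correlation over 0.1) in 10 of 10 pairs of groups in βTC3 batch 1 and in 1 of 1 in batch 2, but in 6 of 10 and 0 of 6 in AJ. On that basis the numbers were taken to pair βTC3 libraries but not AJ libraries. The calls reported for βTC3 still come from fits without the replicate block, and those with it are given as an alternative. The reported βTC3 fits thus leave the pairing out. With the block no call of a member was lost and some were added, as given in the last part. Over 14560 genes with a mean over 0 the counts were 8 of 10, 0 of 1, 3 of 10 and 0 of 6.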

Additional observations from a re-analysis of the deposited data

Results flagged for a closer look

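Each of these results is a difference between effects, on the log2 scale, that passed its own test in edgeR. Sox4 responded more at 24 h than at 2 h of ALK7-CA, by 4.33, SE 0.14, adjusted p = 8.13e-10 in AJ and 1.91, SE 0.096, adjusted p = 6.51e-08 in βTC3, and its 24 h response was larger in AJ than in βTC3 by 3.77, SE 0.12, adjusted p = 2.26e-08. Its activin B response was larger in AJ by 1.53, SE 0.12, adjusted p = 6.88e-06, and its ALK7-CA response exceeded its activin B response by 3.56, SE 0.14, adjusted p = 7.31e-08 in AJ and 1.30, SE 0.091, adjusted p = 0.00014 in βTC3.

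Klf4 in AJ responded more at 24 h than at 2 h by 1.58, SE 0.23, adjusted p = 0.000251 and more to ALK7-CA than to activin B by 1.36, SE 0.23, adjusted p = 0.00176. It responded more in AJ than in βTC3 to ALK7-CA by 1.81, SE 0.18, adjusted p = 5.61e-05 and to activin B by 0.75, SE 0.20, adjusted p = 0.0382. Klf10 in AJ responded more at 24 h than at 2 h by 0.64, SE 0.078, adjusted p = 5.36e-05, more to ALK7-CA than to activin B by 0.96, SE 0.088, adjusted p = 2.4e-05, and more to activin B with ALK7 than with vector by 0.44, SE 0.098, adjusted p = 0.0383. Its ALK7-CA response was larger in AJ than in βTC3 by 1.22, SE 0.08, adjusted p = 2.42e-06. Klf11 responded more at 24 h than at 2 h by 0.52, SE 0.082, adjusted p = 0.000496 in AJ and 0.40, SE 0.11, adjusted p = 0.0488 in βTC3, and more to ALK7-CA than to activin B in AJ by 0.39, SE 0.12, adjusted p = 0.0422.

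The Klf4 activin B difference, the Klf10 difference between ALK7 and vector cells, and the last 2 Klf11 differences are the ones that single libraries can undo, as given above. The comparisons between ALK7-CA and activin B set batch 1 against batch 2, each against its own controls. There both arms of the ALK7-CA effect had dox for 24 h and both arms of the activin B effect none. Stimulus, batch and dox therefore cannot be told apart in them. In the difference between ALK7 and vector cells the ALK7 cells had dox and the vector cells none, so receptor and dox cannot be told apart.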

How the results depend on the processing

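Settings moved these numbers of members called by more than 1.5 times. With DESeq2 βTC3 activin B gave 3 (5 as reported), and without a low-count filter 3 as well. The difference between times in βTC3 gave 1 (2 as reported) with RLE scaling, 1 without a filter and 1 with the stricter filter. The difference between lines for activin B gave 1 (2) without a filter, and dox for 24 h in AJ gave 0 (1) with the contrast's groups alone. Leaving out 1 library gave 4 to 5 members for ALK7-CA at 24 h in AJ, 3 to 4 for activin B in βTC3, 5 to 6 for activin B with ALK7, 2 to 3 for dox at 24 h in βTC3 and 0 to 1 in AJ, and 7 to 8 and 6 to 7 between lines in batches 1 and 2. For differences it gave 1 to 1 for time in βTC3, 4 to 5 for time in AJ, 3 to 4 for ALK7-CA and 1 to 2 for activin B between lines, 0 to 1 for ALK7 against vector cells, and 1 to 2 in βTC3 and 3 to 5 in AJ for ALK7-CA against activin B. No log2 fold change of a called member changed sign under any alternative. Over all genes, leaving out 1 library gave 5347 to 6477 calls for ALK7-CA at 24 h in AJ (6305 with all). For activin B it gave 2174 to 3046 in βTC3 (3210) and 3961 to 4406 with ALK7 (4878). Dox at 24 h in βTC3 gave 2504 to 3311 (3674), and the difference between times there 641 to 806 (924). Neither the cause of these shifts nor whether the members shifted more than all genes was tested.

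With the replicate number as a block, the members called were 1 for ALK7-CA at 2 h in βTC3 (0 without it), 5 for ALK7-CA between lines (3) and 2 for ALK7-CA against activin B in βTC3 (1). The calls over all genes with the block are not given here for ALK7-CA between lines. βTC3 also gained Klf6 for ALK7-CA at 24 h (adjusted p = 0.00352) and for time (0.0029), and Klf4 for dox at 24 h (0.00448). In AJ, where numbers were not read as pairs, the block added Sox11 (adjusted p = 0.0156) and Sox12 (9.39e-05, and 0.0449 in DESeq2) for ALK7-CA at 24 h, Sox11 for activin B with ALK7 (0.0285), and Sox12 (0.0423) and Klf5 (0.0174) for time. Between lines it added Sox12 (0.0109) and Klf11 (0.0422) for ALK7-CA at 24 h and Klf5 in batch 1 (0.0211). Of 167 member results 154 kept their side of the threshold with the block and 13 passed only with it. Over all genes the block gave 1136 calls in βTC3 for ALK7-CA at 2 h (241 without it), 4410 at 24 h (2134), 7165 for dox at 24 h (3674), 2553 for time (924) and 811 for ALK7-CA against activin B (207). In AJ it gave 3895 for ALK7-CA at 2 h (2443), 4954 for time (3246), 1603 for dox at 24 h (419) and 623 for activin B with ALK7 against vector (381).

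Among the other settings, βTC3 ALK7-CA at 2 h gave 375 calls over all genes with DESeq2, 150 without a filter, 31 with its groups alone and 77 to 208 with 1 library left out. Dox at 24 h gave 2135 with its groups alone in βTC3, and in AJ 837 with DESeq2, 210 without a filter, 20 with its groups alone and 116 to 678 with 1 library left out. Dox at 2 h in βTC3 gave 4 with DESeq2, 0 with its groups alone and 1 to 3 with 1 library left out, against 1. ALK7-CA against activin B in βTC3 gave 327 with DESeq2 and 114 to 218 with 1 library left out, and activin B with ALK7 against vector gave 239 to 363. Counts of 54 to 314 for Klf4 and 44 to 272 for Klf5 limit how small a change could be seen.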

Other observations

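Klf10, Klf4, Klf6 and Klf5 in βTC3 vector cells were all lower in batch 2 than in batch 1 without dox (Klf10 33.98 ± 1.47 and 67.3 ± 4.17 CPM), while Sox4 was higher (41.2 ± 1.699 and 32.6 ± 1.77 CPM). No test was made, because batch and culture cannot be told apart. In batch 1 replicate 3 held the lowest value of Sox12 in 10 of 10 groups, of Sox11 in 9 and of Klf4 in 9, and the highest value of Klf10 in 9 of 10.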
